A study of Mus musculus with 49 samples.

Results

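The mouse mitochondrial genome encodes 37 genes, and all 37 were present among the 54838 genes of the count tables. They were selected by position, as the gene rows on chromosome M of GENCODE on GRCm38, and split by biotype into 2 rRNAs, 22 tRNAs and 13 mRNAs. By annotation, 28 lie on the heavy-strand transcript (forward strand of the annotation) and 9 on the light-strand transcript (reverse strand). Expression was measured in single late 2-cell embryos with Smart-seq+5', an oligo-dT primed protocol in which only the reads of 5' transcript ends were counted. All embryos came from crosses of F1(C57BL/6JxCBA/H) females with F1 males. They were collected at 48 h post-hCG after 2 microinjections into the zygote, with 4 h of culture between them. The first injection held an antibody with a blue dextran tracer, and the second held mCherry-Trim21 mRNA in every group, CONTROL embryos included. Trim21 is a ubiquitin ligase that degrades antibody-bound protein (Trim-Away). TBP LOF embryos (n = 9) received a monoclonal antibody against TBP and their CONTROL embryos (n = 10) mouse IgG. FOXJ3 LOF embryos (n = 17) received a polyclonal antibody against FOXJ3 and their CONTROL embryos (n = 13) rabbit IgG, in 2 library batches that differ in the aliquot of lysis buffer and in library preparation. The depletion acts on protein, and how much protein was left in an embryo is not measured by mRNA counts, so the labels could not be checked by the targeted gene.

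Mitochondrial DNA is transcribed inside the organelle by its own polymerase, POLRMT, with the factors TFAM and TFB2M, none of which is TBP or a forkhead factor. Both strands are read as long precursors, and tRNAs punctuate most of the rRNA and mRNA genes, so that cutting out the tRNAs releases the other RNAs. The heavy-strand precursor carries both rRNAs, most tRNAs and all mRNAs except mt-Nd6, and the light-strand precursor carries mt-Nd6 and the remaining tRNAs. In the oocyte, mitochondria and their DNA accumulate in large numbers and are passed on to the zygote, and the amount of mitochondrial DNA per embryo changes little during the cleavage divisions.

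Of 49 embryos, 47 passed the quality thresholds of the study, and 2 (1 TBP CONTROL, 1 FOXJ3 LOF) did not, both for their read number. The limit of 10% mitochondrial reads removed no embryo. In those that passed, 1160150 to 5434808 reads were counted per TBP embryo and 1103569 to 3430110 per FOXJ3 embryo. Between 56529 and 231039 of these were mitochondrial, and the scarcest tRNA, mt-Th, had 28 reads in all TBP CONTROL embryos together. All 7 late 2-cell markers and all 6 oocyte markers were detected in every group. Their summed levels had medians of 249 and 2388 RPM (reads-per-million of all counted reads) in TBP LOF embryos and of 131 and 1297 in their CONTROL embryos, while in the FOXJ3 experiment they had 202 and 1562 in LOF and 251 and 1891 in CONTROL embryos. As shares of reads, these levels depend on how much other RNA the embryo holds. The part of the difference between LOF and CONTROL embryos in the results was not tested. The summed level of 10 cumulus and granulosa cell markers had medians of 2.20 to 5.33 RPM and did not exceed 24.1 in any embryo, with 3 to 5 of them at 0 in each group. The TBP embryos came from 3 biological replicates according to the labels, which do not say which embryo from which. Embryos may thus share a collection, and p-values measure the spread between these embryos only.

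The 5 tRNAs below were those that passed the test upon TBP LOF, and mt-Ty is added as the tRNA with the most reads. Sequences are those of the GENCODE M21 transcripts on GRCm38, written 5' to 3' in the sense of the tRNA, with the anticodon in capitals. mt-Tf, the phenylalanine tRNA (chrM:1-68, forward strand), opens the heavy-strand transcript just before mt-Rnr1. mt-Ta, mt-Tc and mt-Ty (chrM:5018-5086, chrM:5192-5257 and chrM:5260-5326, reverse strand) carry alanine, cysteine and tyrosine and belong to a cluster of light-strand tRNAs. mt-Ts1, a serine tRNA (chrM:6870-6938, reverse strand), lies opposite the end of mt-Co1, which it overlaps by 3 bases, and mt-Te, the glutamate tRNA (chrM:14071-14139, reverse strand), comes directly before mt-Nd6 on the light-strand transcript.
mt-Tf: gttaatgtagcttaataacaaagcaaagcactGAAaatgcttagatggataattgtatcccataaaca
mt-Ta: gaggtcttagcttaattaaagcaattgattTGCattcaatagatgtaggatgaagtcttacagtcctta
mt-Tc: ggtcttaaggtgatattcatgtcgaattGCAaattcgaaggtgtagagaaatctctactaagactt
mt-Ty: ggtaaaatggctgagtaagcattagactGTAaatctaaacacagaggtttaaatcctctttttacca
mt-Ts1: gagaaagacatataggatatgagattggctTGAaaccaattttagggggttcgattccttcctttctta
mt-Te: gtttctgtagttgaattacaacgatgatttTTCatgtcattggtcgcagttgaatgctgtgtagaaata
Each of the 6 tRNAs has its anticodon in the middle, starting at base 29 to 33 of 66 to 69. The genome is so compact that 3 bases separate mt-Ts1 from the next gene and none separate mt-Nd6 from mt-Te. The sources used here do not state whether the counting used strand. Reads of a light-strand tRNA and reads of the heavy-strand precursor across the same bases cannot be told apart, nor a free tRNA from one still joined to its neighbour.

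In CONTROL embryos, mitochondrial transcripts took 3.00%, 5.76% and 8.51% of counted reads (lowest, median and highest of 9 embryos) in the TBP experiment, and 2.83% to 6.39% in the FOXJ3 experiment (median 4.61%, n = 13). rRNA made up 44.9% of these reads at the median of TBP CONTROL embryos, mRNA 50.6% and tRNA 4.23%. In FOXJ3 CONTROL embryos the medians were 25.4% rRNA and 69.7% mRNA in batch 1 (n = 7) and 33.9% and 61.9% in batch 2 (n = 6). The experiments were prepared separately, so their CONTROL levels are set side by side without a test.

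Gene levels were scaled to RPM and, to compare genes, divided by gene length in kb. They are levels of RNA that was primed with oligo-dT, and how completely rRNAs and tRNAs were primed was not tested. mt-Rnr2, the large-subunit rRNA, had 21124 ± 6054 RPM in TBP CONTROL embryos (SD, n = 9), or 13353 per kb, and 12451 ± 5150 in FOXJ3 CONTROL embryos (SD, n = 13), or 7870 per kb. mt-Rnr1, the small-subunit rRNA, lay lower per kb in both, at 2590 and 590.4. Its spread was wide, with 670.0 RPM in the lowest and 5539 in the highest TBP CONTROL embryo.

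Reads of 5' ends need not scale with gene length, and the order of the genes differed between the scales. In RPM, not divided by length, mt-Rnr2 was highest in both CONTROL groups, followed by mt-Cytb (7711 and 10202 RPM in the TBP and the FOXJ3 experiment) and mt-Atp8 (5586 and 6041). Per kb, the highest of all 37 genes in both CONTROL groups was mt-Atp8, which encodes a small subunit of ATP synthase (27382 RPM per kb in the TBP and 29613 in the FOXJ3 experiment). Its reading frame overlaps that of mt-Atp6, the other mitochondrial subunit of ATP synthase, by 43 bases, and the latter had 1503 and 1313 per kb. Both are read from the same bicistronic mRNA, in which mt-Atp8 stands first. Their annotated starts are shown with the start codon in capitals, mt-Atp8 at chrM:7766-7969 and mt-Atp6 at chrM:7927-8607, both on the forward strand.
mt-Atp8: ATGccacaactagatacatcaacatgattt
mt-Atp6: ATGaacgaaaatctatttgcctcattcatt
There were 4.64, 5.84 and 6.97 mt-Atp8 reads per mt-Atp6 read in TBP CONTROL embryos (lowest, median, highest) and 4.24, 5.75 and 6.69 in TBP LOF embryos, ranges that overlap almost wholly. The mRNA with the next highest level per kb was mt-Cytb, the cytochrome b subunit of complex III (6740 and 8918). Of the complex I subunits, mt-Nd4l had 4168 and 3058 per kb, mt-Nd1 3479 and 3381, mt-Nd2 1936 and 1396, mt-Nd3 1672 and 883.4, mt-Nd5 1228 and 1022, and mt-Nd4 978.0 and 772.1. The subunits of cytochrome c oxidase, complex IV, were mt-Co1 with 1967 and 2124 per kb, mt-Co2 with 1957 and 1488, and mt-Co3 with 747.6 and 806.6. The lowest mRNA in both groups was mt-Nd6, the only mRNA of the light strand (386.3 and 139.9 per kb).

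Among tRNAs, mt-Ty stood far above the others, with 1150 ± 269 RPM in TBP CONTROL embryos (SD, n = 9; 17163 per kb) and 1155 ± 345 in FOXJ3 CONTROL embryos (SD, n = 13; 17236 per kb), second per kb of all 37 genes in both. In RPM it ranked 12 of 37 in TBP and 8 of 37 in FOXJ3 CONTROL embryos. mt-Tq (glutamine) followed with 5390 and 3256 per kb, mt-Tm (methionine) with 3112 and 3033, mt-Tp (proline) with 1819 and 790.1 and mt-Tl1 (leucine) with 1268 and 1445. The lowest was mt-Th (histidine), with 23.5 and 12.6 per kb and 28 and 26 reads in all embryos of the group together. mt-Ty lies 1 base from the start of mt-Co1 and mt-Tq overlaps mt-Ti by 3 bases, each on the strand opposite to its neighbour, so that reads of the neighbouring transcript may be among their counts.

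**Figure D1:**
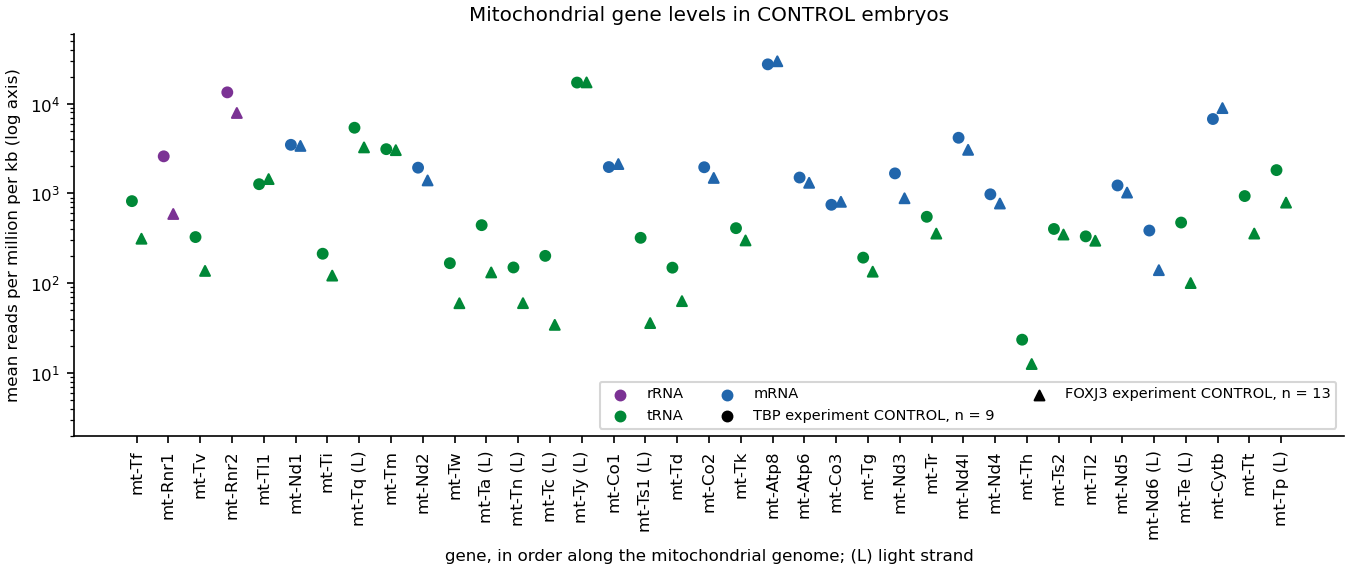
Mean level of each mitochondrial gene in CONTROL embryos, in RPM per kb on a log axis, in the order of the genes along the mitochondrial genome, with circles for the TBP experiment (n = 9) and triangles for the FOXJ3 experiment (n = 13); colours mark rRNA, tRNA and mRNA, and (L) marks light-strand genes. mt-Atp8 (27382 and 29613) and mt-Ty (17163 and 17236) are highest in both, and mt-Th (23.5 and 12.6) is lowest.

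Embryos of a group differed most in tRNA levels. The coefficient of variation had a median of 74.3% over the 22 tRNAs and 39.0% over the 13 mRNAs in TBP CONTROL embryos, and 56.5% and 28.6% in FOXJ3 CONTROL embryos. Genes of few reads also carry more counting error, whose part was not tested. mt-Rnr1 had 64.8% on 35839 reads in TBP CONTROL embryos, against 18.4% for mt-Tm on 4125 reads.

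Nuclear copies of mitochondrial sequence can take reads from the organelle's genes. Of the gene rows outside chromosome M, 11 had a transcript that matched a mitochondrial transcript over at least 150 bases at 95% identity or more, and they held 200775 reads, or 4.12% of the number of mitochondrial reads. Nearly all fell on 4 pseudogenes on the reverse strand of chromosome 1 that are identical to their match over the aligned bases. Gm28661 (chr1:24614885-24615565) matched mt-Co2 and had 107% of its reads, Gm28437 (chr1:24613189-24613971) matched mt-Co3 with 44.6%, Gm10222 (chr1:24612407-24612700) matched mt-Nd4l with 48.1%, and Gm10925 (chr1:24613974-24614651) matched mt-Atp6 with 12.7%. The levels of mt-Co2, mt-Co3, mt-Nd4l and mt-Atp6 are therefore uncertain, since reads that fit both places may be split between them. Of the other copies with a mean of at least 1 read per embryo, Gm28439, Gm28438, Gm29216 and Gm13340 had between 192 and 918 reads in all embryos and matched mt-Nd4, mt-Nd3 and mt-Co1.

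The ninth, Gm13341 on the reverse strand of chromosome 2 (chr2:22587291-22587962), resembled mt-Co2 at 95.9% identity and differed between TBP LOF and CONTROL embryos. It had 186.8, 165.6 and 67.4 RPM in LOF embryos 5, 9 and 7, whereas the 6 other LOF embryos lay between 0 and 1.48 and the 9 CONTROL embryos between 0 and 2.59. Its log2 fold change was 5.23 (edgeR's quasi-likelihood test, Benjamini-Hochberg adjusted p = 4.2e-06), and it rested on these 3 embryos of 9. No embryo of the FOXJ3 experiment had more than 4 of its reads. Whether it is transcribed in place or receives reads from elsewhere was not tested.

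No difference in total mitochondrial RNA passed the test in either experiment. In TBP LOF embryos the 37 genes together took 4.69%, 6.63% and 9.85% of reads (lowest, median and highest of 9), against 3.00%, 5.76% and 8.51% in CONTROL embryos. The difference in mean log2 share was 0.31 (exact permutation test, p = 0.163, and 0.359 after Benjamini-Hochberg adjustment over 22 measures of both experiments; these tests are two-sided throughout). The mRNA share was 2.38%, 4.21% and 5.83% in LOF against 1.498%, 3.41% and 4.31% in CONTROL embryos, a log2 difference of 0.48 (exact permutation test, p = 0.0791, adjusted p = 0.359). The ranges overlap for every class, as the plot of shares by embryo shows. The rRNA share differed by 0.07 and the tRNA share by 0.18 on the log2 scale.

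**Figure D2:**
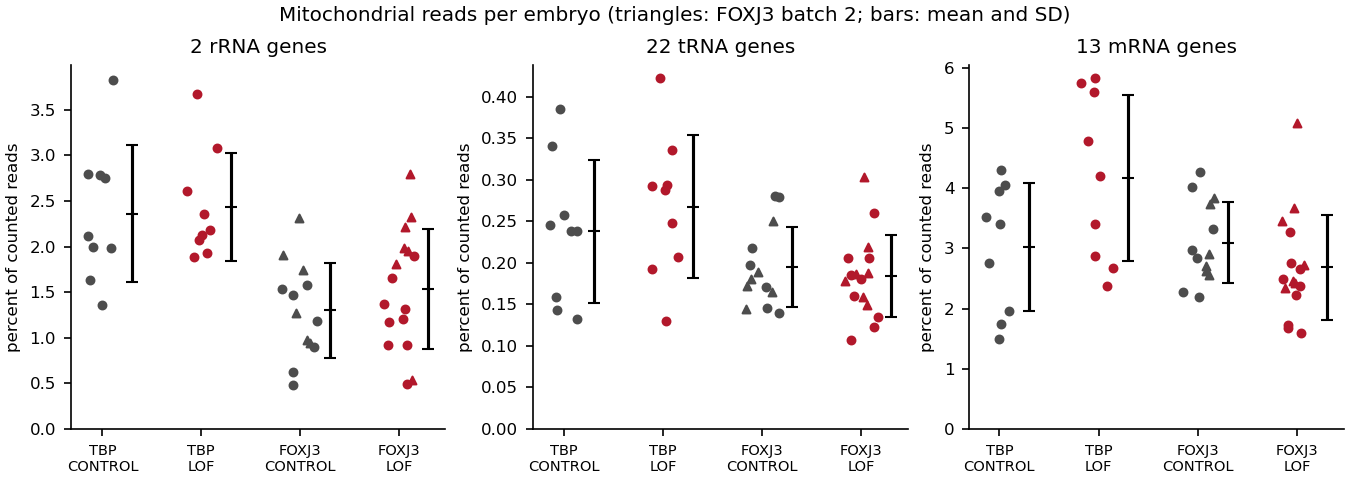
Share of counted reads (percent) taken by the rRNA, tRNA and mRNA genes of the mitochondrial genome in each embryo that passed quality control, by group (TBP CONTROL n = 9, TBP LOF n = 9, FOXJ3 CONTROL n = 13, FOXJ3 LOF n = 16), with triangles for batch 2 of FOXJ3 and bars for the mean ± SD. LOF and CONTROL embryos overlap in each panel.

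A share of reads depends on how much other RNA the embryo holds, so the classes were also measured per ERCC spike-in read. On this scale all differences were negative upon TBP LOF: 0.319 to 1.15 mitochondrial rRNA reads per ERCC read in LOF embryos (median 0.563) against 0.545 to 1.26 in CONTROL embryos (median 0.858). In 8 of 9 LOF embryos the value was under the median of CONTROL. The log2 difference was -0.52 for rRNA (exact permutation test, p = 0.0400, adjusted p = 0.293), -0.41 for tRNA (exact permutation test, p = 0.158, adjusted p = 0.359) and -0.12 for mRNA (exact permutation test, p = 0.687, adjusted p = 0.762). The direction thus depends on the reference, and no class total passed the adjusted threshold on either scale.

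Ratios between classes do not depend on the reference. There were 0.432, 0.565 and 0.991 rRNA reads per mRNA read in TBP LOF embryos (lowest, median, highest) and 0.521, 0.887 and 1.01 in CONTROL embryos. In 8 of 9 LOF embryos the ratio was under the median of CONTROL, and the log2 ratio differed by -0.41 (exact permutation test, p = 0.0336, adjusted p = 0.293). tRNA reads per mRNA read were 0.0485, 0.0611 and 0.0862 against 0.0606, 0.0812 and 0.0957, a log2 difference of -0.30 (exact permutation test, p = 0.0297, adjusted p = 0.293), also with 8 of 9 under that median. Both ratios were therefore lower in most LOF embryos, in ranges that overlap, and neither passed after adjustment. Light-strand reads per heavy-strand read had a log2 difference of -0.18 (exact permutation test, p = 0.115, adjusted p = 0.359).

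In the FOXJ3 experiment, all mitochondrial genes together took 2.23%, 4.35% and 7.34% of reads in LOF embryos (lowest, median, highest of 16) and 2.83%, 4.61% and 6.39% in CONTROL embryos (n = 13). The log2 difference was -0.09 (permutation test, p = 0.526, adjusted p = 0.643), and -0.08 when permuted within the library batches (p = 0.520). The mRNA share had a log2 difference of -0.24 (permutation test, p = 0.107, adjusted p = 0.359), of -0.44 in batch 1 (9 LOF and 7 CONTROL embryos, exact permutation test, p = 0.0337) and of 0.02 in batch 2 (7 and 6 embryos, exact permutation test, p = 0.941). rRNA reads per mRNA read were 0.147, 0.563 and 0.954 in LOF and 0.188, 0.496 and 0.724 in CONTROL embryos, a log2 difference of 0.45 (permutation test, p = 0.0937, adjusted p = 0.359; within batches p = 0.0843). It was 0.60 in batch 1 (exact permutation test, p = 0.0561) and 0.28 in batch 2 (exact permutation test, p = 0.563). LOF and CONTROL embryos overlapped for all 11 measures, and none passed the adjusted threshold.

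Before single genes were compared, several embryos of the TBP experiment stood apart. CONTROL embryos 8, 9 and 10 lay below the other 6 CONTROL embryos for 27 of the 37 mitochondrial genes, in RPM, against 1.69% of the 19430 other rows. A row without a read in some of the other embryos cannot show this order, so sparse rows lower the share of other rows, here and for LOF embryos below. The 3 embryos were picked after the values were seen. mt-Rnr1 was at 670.0 to 896.7 RPM in these 3 and at 2357 to 5539 in the other 6, mt-Nd6 at 22.8 to 42.7 against 151.4 to 478.3, and mt-Ts1 at 0.28 to 1.66 against 6.08 to 55.7. Heavy-strand mRNAs were also lower in these 3, with mt-Nd4l at 518.7 to 563.5 against 1314 to 2278, mt-Nd2 at 662.2 to 926.8 against 1851 to 3401 and mt-Atp8 at 2313 to 3586 against 5683 to 7957. The ranges overlapped for mt-Co1, at 1985 to 2694 against 2571 to 4040, and for mt-Tm, at 169.9 to 213.6 against 158.6 to 272.7. Their libraries were also deeper, with 1989460 to 5434808 against 1160150 to 1644740 counted reads, and had fewer transposable element reads, 14.9% to 16.9% against 22.1% to 37.2%. LOF embryos 10 and 11 were the lowest LOF embryos for 11 of 37 mitochondrial genes, against 1.88% of other rows. The part of depth, collection or RNA quality in this was not tested. Both groups hold such embryos. Results for single genes are also given without CONTROL embryos 8 to 10, and with only the embryos numbered 1 to 7 of both groups.

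In the fit of 9 LOF and 9 CONTROL embryos with ERCC scaling, tRNAs were the only mitochondrial class with genes past the threshold upon TBP LOF. ERCC reads made up 2.67% to 6.12% of counted reads in LOF and 2.22% to 3.25% in CONTROL embryos, so LOF values scaled to them are lower than shares of reads. Scaled to ERCC spike-ins, 5 of the 37 passed the threshold of adjusted p under 0.05, all 5 lower and all 5 tRNAs, where 31.1% of all 19356 genes and transposable element families passed (29.7% lower, 1.34% higher). All 37 had passed the filter on low counts. In bulk RNA of an embryo, fewer transcripts per mitochondrion and fewer mitochondria cannot be told apart. The median log2 fold change was -0.43 over the 37 genes, with 36 of 37 negative, -0.70 over the 22 tRNAs, -0.64 over both rRNAs and -0.08 over the 13 mRNAs, against -0.72 over all features tested. At an unadjusted p under 0.05 there were 11 of the 37, beside 39.2% of all features.

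The largest difference was that of mt-Ts1, the serine tRNA opposite the end of mt-Co1. It had 0.82, 8.57 and 29.0 ERCC-normalised reads in LOF embryos (lowest, median, highest of 9) and 0.74, 37.1 and 117 in CONTROL embryos (n = 9). All 9 LOF values were under the median of CONTROL, yet the ranges overlap. CONTROL embryos 8, 9 and 10 had 0.74, 3.05 and 4.03. Without these 3 the ranges still overlap: mt-Ts1 had 6.08 RPM in the lowest of the other 6 CONTROL embryos and 17.8 RPM in the highest LOF embryo. Its log2 fold change was -2.05 ± 0.56 (SE; edgeR's quasi-likelihood test, Benjamini-Hochberg adjusted p = 0.00287). mt-Te, the glutamate tRNA, had 3.38, 14.3 and 50.5 in LOF and 2.69, 47.2 and 203 in CONTROL embryos, with the same 3 CONTROL embryos lowest. It differed by -1.87 ± 0.51 on the log2 scale (SE; edgeR, adjusted p = 0.00308), with 8 of 9 LOF values under the median of CONTROL.

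mt-Tf, the phenylalanine tRNA at the start of the heavy-strand transcript, was the only heavy-strand gene that passed. It had 25.6, 34.3 and 180 ERCC-normalised reads in LOF and 40.7, 120 and 348 in CONTROL embryos. LOF embryo 2 lay highest of its group, and 8 of 9 LOF values were under the median of CONTROL. The log2 fold change was -1.21 ± 0.38 (SE; edgeR, adjusted p = 0.00938). mt-Ta, the alanine tRNA, had 7.94, 13.1 and 100 against 12.6, 36.4 and 202 (log2 fold change -1.31 ± 0.47 SE; edgeR, adjusted p = 0.0253), and mt-Tc, the cysteine tRNA, 2.46, 4.76 and 50.8 against 3.47, 9.48 and 92.1 (-1.40 ± 0.56 SE; edgeR, adjusted p = 0.0471). In both, 6 of 9 LOF values were under that of the median CONTROL embryo.

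**Figure D3:**
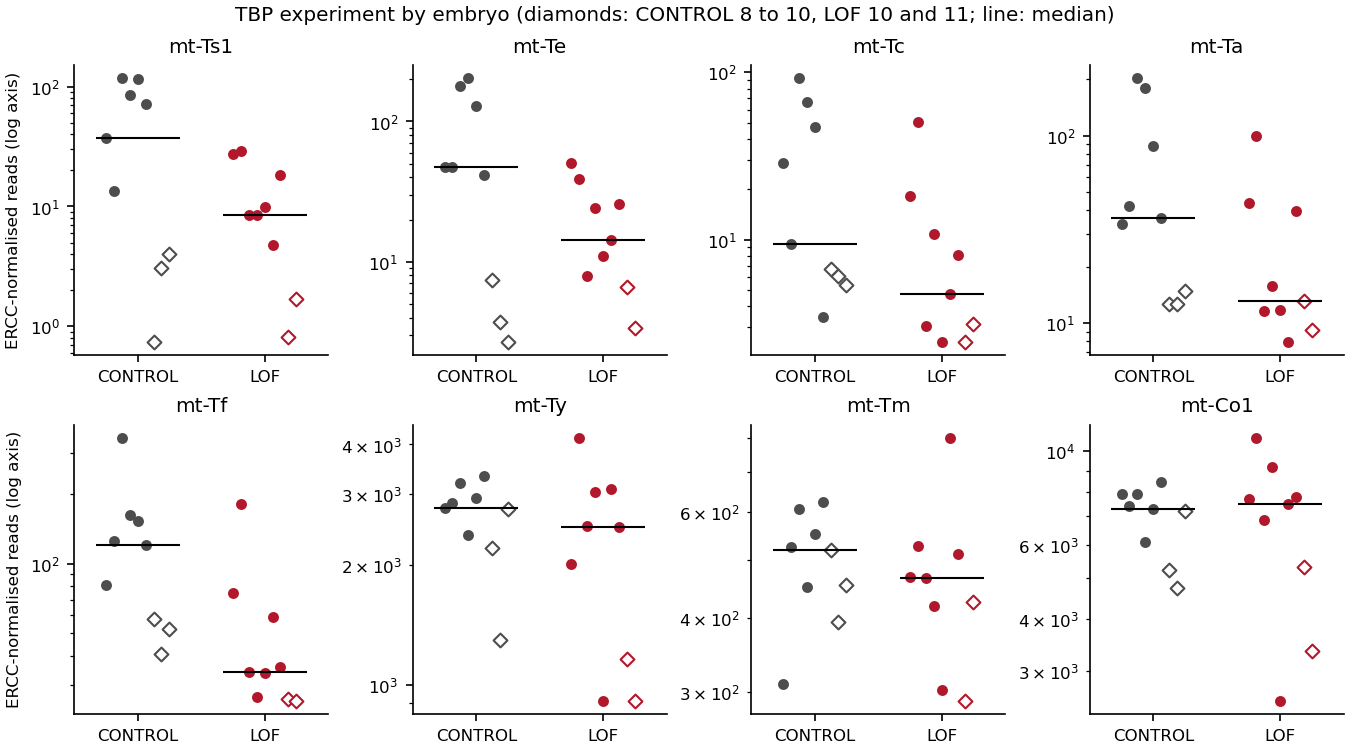
ERCC-normalised reads (log axis) of 8 mitochondrial genes in each TBP embryo, CONTROL (grey, n = 9) and LOF (red, n = 9), with a line at the median and open diamonds for CONTROL embryos 8 to 10 and LOF embryos 10 and 11. For mt-Ts1 and mt-Te the 3 diamonds of CONTROL lie below the other 6 CONTROL embryos, and for mt-Co1 the medians are 7483 in LOF and 7286 in CONTROL embryos.

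By strand, 4 of 9 light-strand genes and 1 of 28 heavy-strand genes passed, beside 31.1% of all features. Their medians were -0.88 and -0.34 on the log2 scale, against -0.72 over all features. The remaining light-strand genes were mt-Nd6 with -0.86 ± 0.40 (SE; edgeR, adjusted p = 0.103), mt-Tp with -0.88, mt-Tn with -0.84, mt-Tq with -0.44 and mt-Ty with -0.23. The difference between the strands was not tested. Of the abundant heavy-strand tRNAs, mt-Tl1 had -0.19 and mt-Tm -0.08.

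The rRNAs and mRNAs showed smaller differences. mt-Rnr1 had 1131, 3426 and 6270 ERCC-normalised reads in LOF and 1267, 6001 and 12357 in CONTROL embryos (log2 fold change -0.78 ± 0.36 SE; edgeR, adjusted p = 0.0942). mt-Rnr2 had 18249, 30635 and 62783 against 28835, 50565 and 72878 (-0.50 ± 0.34 SE; edgeR, adjusted p = 0.294). LOF medians were the lower ones for both rRNAs, in ranges that overlap. The 12 heavy-strand mRNAs lay between -0.34 (mt-Co2) and 0.09 (mt-Nd1), with adjusted p of at least 0.489. mt-Co1 had 2548, 7483 and 10776 in LOF and 4742, 7286 and 8468 in CONTROL embryos (-0.03 ± 0.31 SE), and mt-Cytb 7220, 17856 and 24362 against 8854, 17742 and 24906 (-0.08 ± 0.32 SE). The complex I subunits mt-Nd4, mt-Nd5, mt-Nd2, mt-Nd4l and mt-Nd3 had -0.02, -0.08, -0.19, -0.31 and -0.33, mt-Co3 had -0.06, and the ATP synthase subunits mt-Atp6 and mt-Atp8 had -0.06 and -0.11. None of the 13 mRNAs passed, with SEs of 0.30 to 0.40 on the log2 scale.

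Scaled by TMM, which takes most features as unchanged between embryos, the calls turned round. Then 7 of 37 mitochondrial genes passed and all 7 were higher in LOF embryos, where 25.5% of all features passed (12.8% higher, 12.7% lower). They were mt-Nd1 (log2 fold change 0.92), mt-Tm (0.83), mt-Nd4 (0.83), mt-Co1 (0.80), mt-Nd5 (0.79), mt-Co3 (0.77) and mt-Cytb (0.77), with adjusted p between 0.00552 and 0.0318 in edgeR's quasi-likelihood test. By strand, these were 7 of 28 heavy-strand genes, and none of the 9 light-strand genes passed. The median of all features moved from -0.72 to 0.11, and the median of the 37 genes from -0.43 to 0.42. None of the 5 tRNAs named above passed under TMM, although mt-Ts1 stayed at -1.22 (edgeR, adjusted p = 0.146) and mt-Te at -1.13 (edgeR, adjusted p = 0.143). On both scales the 12 heavy-strand mRNAs lay above the median of all features, by values that differ with the scale, and mt-Ts1 and mt-Te lay below it. ERCC-scaled values measure RNA per embryo, and TMM-scaled values measure a level relative to other transcripts.

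**Figure D4:**
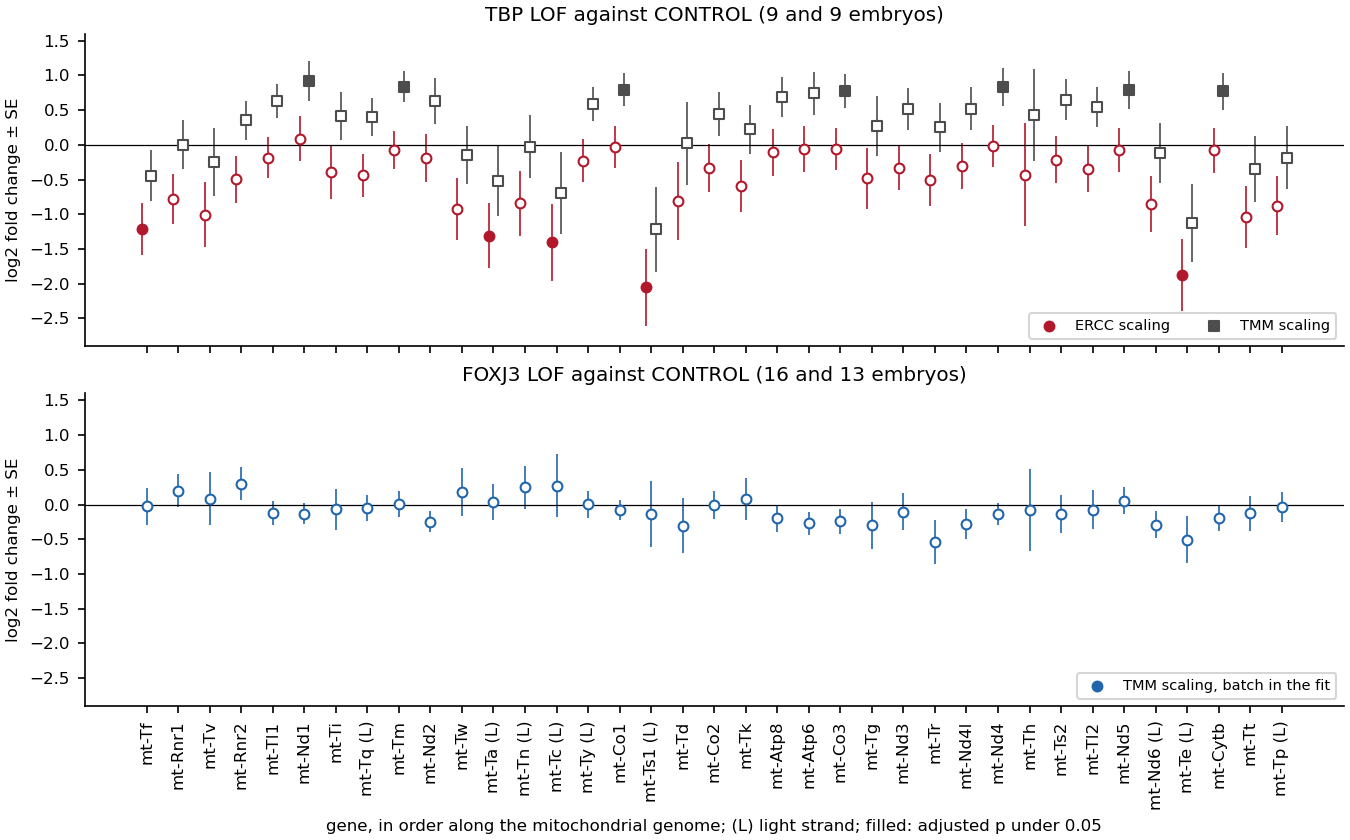
Log2 fold change ± SE of each mitochondrial gene, in the order along the mitochondrial genome with (L) for light-strand genes, for TBP LOF against CONTROL (9 and 9 embryos, circles with ERCC scaling and squares with TMM) and FOXJ3 LOF against CONTROL (16 and 13 embryos, TMM with batch in the fit); filled symbols have adjusted p under 0.05. With ERCC scaling 5 tRNAs are filled and lower, with TMM 7 genes are filled and higher, and no gene is filled for FOXJ3.

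The TBP calls depended on single embryos. When each embryo was left out in turn, mt-Ts1 and mt-Te passed in all 18 fits, mt-Tf in 17, mt-Ta in 12 and mt-Tc in 7. mt-Rnr1 and mt-Nd6 also passed in some of these fits, with smallest adjusted p of 0.0412 and 0.0205 in edgeR's quasi-likelihood test. The number of genes called was 2 without CONTROL embryo 3, 3 without CONTROL embryo 4 or LOF embryo 5, 7, 8 or 11, 10 without CONTROL embryo 9 and 15 without LOF embryo 2. In the same 18 fits, 5432 to 6162 of all features passed, with 5748 of 19153 without CONTROL embryo 3 and 5777 of 19120 without LOF embryo 2. Without CONTROL embryos 8, 9 and 10, 12 genes passed, all lower (4534 of all 19421 features passed), among them the same 5, mt-Rnr1 (-1.21, adjusted p = 0.00866 by edgeR) and mt-Nd6 (-1.37, adjusted p = 0.00320 by edgeR). mt-Ts1 then had -2.65 and mt-Te -2.45. These 3 embryos had the lowest CONTROL values for most of the 37 genes, and LOF embryos 10 and 11 were kept. Leaving out the 3 therefore raises CONTROL levels, so the larger differences of this fit are no further support. With embryos numbered 1 to 7 alone (5 LOF and 6 CONTROL), 8 passed, all lower (4228 of all 19374 features passed), with mt-Ts1 at -2.16 and mt-Te at -2.04. In the 7 LOF and 7 CONTROL embryos whose numbers occur in both groups (1, 2, 5, 6, 8, 9 and 10), which leaves out LOF embryos 7 and 11 and CONTROL embryos 3 and 4, none of the 37 passed in edgeR's quasi-likelihood test, with 1 at an unadjusted p under 0.05 and 18 of 37 negative, while 4838 of 19619 features passed. There mt-Ts1 had -1.30 (edgeR, adjusted p = 0.142), mt-Te -0.71 (edgeR, adjusted p = 0.389), mt-Tf -0.51, mt-Tc -0.11 and mt-Ta -0.03. The calls of all 5 tRNAs thus depended on which embryos were included. The sets without CONTROL embryos 8 to 10 and with embryos numbered 1 to 7 were chosen after the values were seen. The set of shared numbers was that of a planned fit with embryo number as replicate block, and only its fit without the block was added later. DESeq2 with the same ERCC size factors called 3 of the 37, mt-Ts1, mt-Te and mt-Tf, where it called 31.5% of all features (30.5% lower, 1.04% higher).

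Upon FOXJ3 LOF, none of the 37 genes passed in edgeR's quasi-likelihood test with batch as covariate, none in DESeq2, and none had an unadjusted p under 0.05, where 0.0102% of all 19517 features passed and 5.71% had an unadjusted p under 0.05. Log2 fold changes lay between -0.54 (mt-Tr, the arginine tRNA) and 0.30 (mt-Rnr2), with a median of -0.08 and 26 of 37 negative. With ERCC size factors in place of TMM, 25 of 37 were positive with a median of 0.06, while the median of all features moved from -0.03 to 0.14, and none passed. The direction of the set as a whole thus depended on the scaling. mt-Rnr2 had 8497, 30695 and 67949 normalised reads in LOF embryos (lowest, median, highest of 16) and 7831, 23360 and 46537 in CONTROL embryos (n = 13), a log2 fold change of 0.30 ± 0.24 (SE). mt-Tr had 7.07, 31.6 and 92.5 against 12.1, 37.4 and 135 (-0.54 ± 0.32 SE), and mt-Cytb 8466, 17465 and 37456 against 11300, 19782 and 29876 (-0.20 ± 0.18 SE). The ranges overlap for all 37 genes. Of the tRNAs that passed upon TBP LOF, mt-Ts1 had -0.14 ± 0.48 (SE), mt-Te -0.50 ± 0.34, mt-Tf -0.03 ± 0.27, mt-Ta 0.03 ± 0.26 and mt-Tc 0.27 ± 0.45.

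The sign of the FOXJ3 differences was not the same in both batches. In batch 1 alone, 35 of 37 genes were negative, with a median of -0.34, and 6 had an unadjusted p under 0.05 (8.21% of all features did), mt-Nd6 among them with -0.69. In batch 2 alone, 35 of 37 were positive, with a median of 0.16, and 2 had an unadjusted p under 0.05 (5.37% of all features did), mt-Tp (0.63) and mt-Co2 (0.51). With the reads of nuclear copies added to their gene, mt-Co2 had 0.25 in batch 2 and only mt-Tp remained under 0.05. None passed after adjustment in either batch. The test of the difference between batches called none of the 37 and 0.0% of all features, with 6 of the 37 and 7.96% of all features at an unadjusted p under 0.05 in edgeR's quasi-likelihood test and none of the 37 called with ERCC size factors. Mitochondrial genes share libraries and scaling, so their signs are not independent.

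A direct test of the TBP LOF effect minus the FOXJ3 LOF effect, each against its own CONTROL embryos and with ERCC scaling, called 2 of 37 genes, where 28.9% of all 19657 features passed (28.0% lower, 0.911% higher). They were mt-Ts1, with a difference of -2.18 ± 0.81 on the log2 scale (SE; edgeR, adjusted p = 0.0322), and mt-Ta, with -1.61 ± 0.59 (SE; edgeR, adjusted p = 0.0317). mt-Te had -1.61 ± 0.68 (SE; edgeR, adjusted p = 0.0675). With TMM both lost the call and 7 other genes passed, all with a positive difference, where 21.6% of all features passed (10.7% higher, 10.9% lower). The calls also depended on the FOXJ3 batch. With batch 1 alone none of the 37 passed in edgeR and 1 had an unadjusted p under 0.05, while 5332 of 19684 features passed, and mt-Ts1 had -1.61 and mt-Ta -1.30 (edgeR, adjusted p = 0.215 and 0.172). With batch 2 alone 3 passed (3549 of 19473 features), mt-Ts1 with -2.94, mt-Ta with -1.96 and mt-Tp with -1.69. The median difference over all features moved from -0.89 with ERCC scaling to 0.13 with TMM.

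Both rRNAs lie next to each other on the heavy-strand precursor, with only mt-Tv between them, and their ratio differed between library batches. In FOXJ3 embryos of batch 1 there were 10.6 to 20.5 mt-Rnr2 reads per mt-Rnr1 read, with medians of 14.1 in CONTROL (n = 7) and 15.1 in LOF embryos (n = 9). In batch 2 there were 23.7 to 61.4, with medians of 43.7 (n = 6) and 44.6 (n = 7). The batches do not overlap, whereas LOF and CONTROL embryos overlap within each. TBP embryos had 5.90 to 22.8, with medians of 8.46 in CONTROL and 10.01 in LOF embryos. CONTROL embryos 8, 9 and 10 were the highest of their group, and LOF embryos 10 and 11 the highest of theirs (19.8 and 16.1).

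**Figure D5:**
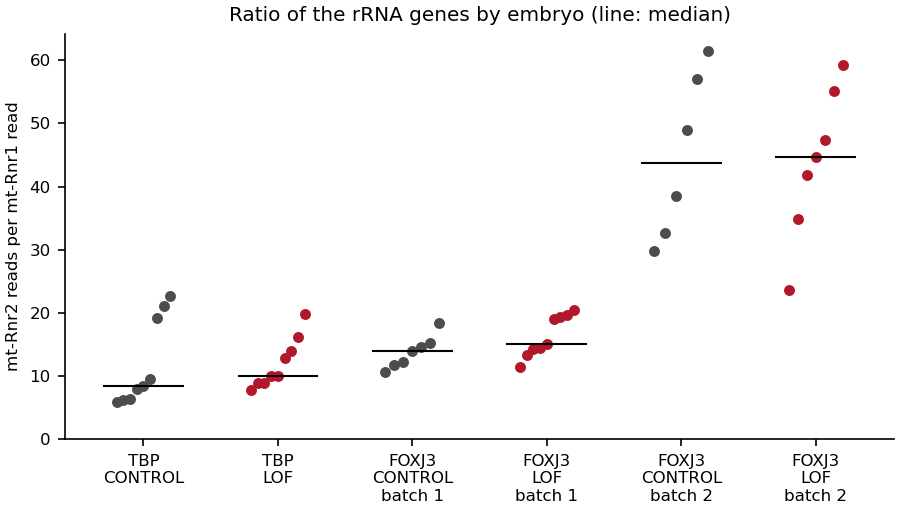
mt-Rnr2 reads per mt-Rnr1 read in each embryo, not corrected for length, by group and library batch, with a line at the median (TBP n = 9 and 9; FOXJ3 batch 1 n = 7 and 9; batch 2 n = 6 and 7). Batch 2 embryos (23.7 to 61.4) lie above all batch 1 embryos (10.6 to 20.5), and LOF and CONTROL embryos overlap within each.

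Gene by gene, no mitochondrial gene passed between batch 2 and batch 1 in edgeR's quasi-likelihood test, where 0.482% of all features did (0.22% higher in batch 2, 0.261% lower), and 9 of 37 had an unadjusted p under 0.05, beside 11.2% of all features. DESeq2 called 2 of the 37 and 1.81% of all features (0.722% higher, 1.09% lower). These were mt-Rnr1, lower in batch 2, and mt-Co2, higher in batch 2. In edgeR their log2 fold changes were -0.88 ± 0.24 (SE, adjusted p = 0.0789) and 0.76 ± 0.20 (SE, adjusted p = 0.0653). The call of mt-Co2 depended on Gm28661, its identical copy on chromosome 1, which was lower in batch 2, with a mean of 864 RPM against 1384 in CONTROL and 720.0 against 1046 in LOF embryos. With the reads of copies added, mt-Co2 had 0.13 ± 0.17 (SE; edgeR, adjusted p = 0.834), and DESeq2 called mt-Rnr1 alone. mt-Rnr2 went the other way from mt-Rnr1, with 0.68 (edgeR, adjusted p = 0.198). The batches differ in lysis buffer aliquot and library preparation, which cannot be told apart here.

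Nuclear genes that serve mitochondrial gene expression were lower upon TBP LOF in most cases. Of a list of 94, 91 were tested with ERCC scaling and 56 passed, all lower, where 29.7% of all features passed lower (median log2 fold change -1.47, against -0.72 over all features). The share over all features depends on how many sparse features are tested. With edgeR's stricter filter on low counts, 4269 of all 8124 features passed lower, with a median of -0.90. The list was not set against features of like expression, and whether it differs from them was not tested. By role, 6 of 9 transcription genes, 5 of 10 replication genes, 14 of 23 RNA processing and decay genes, 9 of 14 RNA modification genes, 7 of 11 translation factors, 10 of 17 aminoacyl-tRNA synthetases and 5 of 7 nuclear regulators were lower. With TMM, 32 passed, 26 lower and 6 higher (median -0.58, against 0.11 over all features), where 12.7% of all features passed lower. The genes that were lower with TMM were 3 of 9 transcription genes, 2 of 10 replication genes, 6 of 23 RNA processing and decay genes, 4 of 14 RNA modification genes, 2 of 11 translation factors, 6 of 17 aminoacyl-tRNA synthetases and 3 of 7 nuclear regulators. Every role had fewer lower calls than with ERCC scaling, as had all features (12.7% against 29.7%), so this is no result about the roles.

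The smallest adjusted p values were those of Cdk5rap1 and Alkbh1, which modify mitochondrial tRNAs, and Tfb2m, the initiation factor of the mitochondrial polymerase. Tfb2m had 16.9, 49.4 and 74.8 ERCC-normalised reads in LOF and 143.6, 226.1 and 339.8 in CONTROL embryos, ranges that do not overlap (log2 fold change -2.30 ± 0.31 SE; edgeR, adjusted p = 7.0e-08). Cdk5rap1 had 0.97, 4.30 and 24.1 against 17.6, 65.7 and 138, with a log2 fold change of -3.58 ± 0.45 (SE; edgeR, adjusted p = 1.4e-08) and Alkbh1 -2.60 ± 0.35 (SE; edgeR, adjusted p = 7.0e-08). Polrmt, the mitochondrial RNA polymerase, had 2.41, 12.3 and 41.0 against 59.6, 84.3 and 188.1, also without overlap (-2.65 ± 0.40 SE; edgeR, adjusted p = 5.0e-07). Lrpprc, which stabilises mitochondrial mRNAs, had -1.60 ± 0.52 (SE; edgeR, adjusted p = 0.0145), and Tfam, which packages and bends the promoter DNA, -1.29 ± 0.61 (SE; edgeR, adjusted p = 0.106). Elac2, which cuts the 3' end of mitochondrial and nuclear tRNA precursors and was picked here after its values were seen, had 1.45, 7.94 and 11.5 against 31.2, 41.7 and 93.5 without overlap (-2.86 ± 0.41 SE; edgeR, adjusted p = 2.1e-07). The share of all features whose ranges also do not overlap is not given here, so the lack of overlap cannot be read as particular to Tfb2m, Polrmt and Elac2. With TMM, Tfb2m (-1.498), Polrmt (-1.86) and Elac2 (-2.002) still passed. Of the positive differences, Fastk (0.76), Vars2 (0.75) and Mrm2 (0.90) had the smallest p and did not pass with ERCC scaling (edgeR, adjusted p of 0.253 to 0.545).

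Upon FOXJ3 LOF none of 92 tested genes of this list passed in edgeR's quasi-likelihood test, with 8 at an unadjusted p under 0.05, beside 5.71% of all features. The positive differences of smallest p were those of Mtrf1l, a release factor (log2 fold change 1.55), Elac2 (0.71), and Mars2, a methionyl-tRNA synthetase (0.68), with adjusted p of 0.617 to 0.728. Among negative differences the smallest p were those of Fars2, a phenylalanyl-tRNA synthetase (-0.63), Angel2 (-0.33) and Nsun4, an rRNA methyltransferase (-0.28). Tfam, Polrmt, Tfb2m and Lrpprc had 0.62, 0.14, 0.04 and 0.60, none past the threshold.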

How the data were processed

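Single late 2-cell embryos had been sequenced with Smart-seq+5', and the authors deposited tables of estimated counts per gene and transposable element family, whole numbers made from 5' end reads aligned with STAR 2.7.11a to GRCm38 per the labels. The strand setting, and how reads with several positions were shared, were not given in the sources used here. Rounding changed no value. Tables of single transposable element insertions of the TBP embryos were not used. Embryos with at least 500000 reads, 1000 genes, at most 10% mitochondrial and 15% ERCC reads were kept (47 of 49). RPM is a gene's reads over all counted reads of the embryo, with spike-ins and transposable elements included.

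Genes and 1343 transposable element families with at least 1 read in 25% of embryos were tested with edgeR 4.0.16 (quasi-likelihood, two-sided, R 4.3.3), with Benjamini-Hochberg adjustment over all features tested, and calls at adjusted p under 0.05. For TBP, size factors were median ratios over the 42 ERCC transcripts with a read in each embryo. For FOXJ3, TMM was used and the library batch entered the fit as covariate. The difference between both experiments was tested in 1 fit with ERCC scaling. SE is the log2 fold change divided by the square root of F. Class totals were compared by permutation tests on mean log2 values, exact for TBP and within single batches and with 100000 resamples for FOXJ3 (SciPy 1.17.1, NumPy 2.4.6, pandas 2.3.3, Python 3.11.15). Nuclear copies were found by aligning annotated transcripts of GENCODE M21 with BLAST 2.17.0. Figures were drawn with Matplotlib 3.10.9. The scripts were tested on simulated data, with 200 changed features in each experiment. Changes of 1 on the log2 scale were recovered for 10% of them with the TBP and 61.5% with the FOXJ3 embryos. Changes of 2 were recovered for 82.5% and 98%. In the TBP data 6017 of 19356 features passed, far more than were changed in the simulation. The adjusted threshold was therefore not the same, and these shares need not hold for the TBP data. A gene that did not pass upon TBP LOF is not thereby shown to be unchanged. Alternatives were TMM, DESeq2 size factors, DESeq2 1.42.0, other filters, all embryos, an embryo block, single batches and each embryo left out.

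Both rRNAs, the 13 mRNAs, the tRNAs that passed a test and the 5 tRNAs with the most reads were described in full, and other tRNAs by range and count, except those named as the end of a range or to complete the light-strand genes, which were chosen after their values were seen. Of the nuclear list, the 3 genes of smallest adjusted p in each direction were named with Tfam, Polrmt, Tfb2m and Lrpprc (Elac2, so named for FOXJ3, was added for TBP after its values were seen), and of nuclear copies those with a mean of at least 1 read. The members, lists and tests were chosen with earlier results of these data known. The study's methods give other numbers of TBP embryos per group than the labels, which were followed here.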

Additional observations from a re-analysis of the deposited data

Results flagged for a closer look

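Of 42 sets of embryo values of one group and measure tested for a single embryo far from the rest, 2 were marked, and chance marks about 1 in 20 such sets. FOXJ3 CONTROL embryo 2 of batch 2 had 6.39% mitochondrial reads, where the next highest of 6 embryos had 4.83%. FOXJ3 CONTROL embryo 3 of batch 2 had 0.0231 light-strand reads per heavy-strand read, where the next lowest of 6 embryos had 0.0315. 

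The effect of TBP LOF differed from that of FOXJ3 LOF, by a test of the difference itself with ERCC scaling, for mt-Ta (-1.61 on the log2 scale; edgeR, adjusted p = 0.0317) and mt-Ts1 (-2.18; edgeR, adjusted p = 0.0322). With TMM the differences were -0.56 and -1.08 and did not pass (edgeR, adjusted p = 0.516 and 0.351). With FOXJ3 batch 1 alone they were -1.30 and -1.61 and did not pass either (edgeR, adjusted p = 0.172 and 0.215), whereas with batch 2 alone both passed.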

How the results depend on the processing

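The number of mitochondrial genes called upon TBP LOF (5, all lower) was 7, all higher, with TMM and with DESeq2 size factors. With DESeq2 size factors, 5045 of all 19356 features passed, 2601 of them higher. The mitochondrial count was also 7, all higher, with TMM computed without mitochondrial genes and their copies. The same held with TMM after adding the reads of nuclear copies. The mitochondrial count was 3 in DESeq2 with ERCC scaling and 9 without a filter (6818 of all 29139 features passed without a filter). It was 12 without CONTROL embryos 8 to 10, 8 with embryos numbered 1 to 7 alone, and 2 to 15 when single embryos were left out. With embryo number as replicate block it was 0 (4623 of 19619 features passed lower), and it was 0 in the same embryos with no replicate block (4514 passed lower). The called tRNAs then had, with the block and without it, -0.57 and -1.30 (mt-Ts1), -0.030 and -0.71 (mt-Te), -0.69 and -0.51 (mt-Tf), -0.14 and -0.029 (mt-Ta) and -0.19 and -0.11 (mt-Tc). Embryos share only a number (correlations of paired deviations from -0.05 to 0.13 in the TBP and -0.21 to 0.27 in the FOXJ3 experiment). In FOXJ3 embryos the count was 0 with the replicate block as in every other fit, which shows nothing about the block. Directions of abundant genes followed the scaling. With TMM, DESeq2 size factors, TMM without mitochondrial genes and TMM with copies added, in this order, log2 fold changes were 0.35, 0.37, 0.36 and 0.35 for mt-Rnr2, 0.80, 0.82, 0.80 and 0.80 for mt-Co1, 0.77, 0.80, 0.78 and 0.90 for mt-Co3, 0.83, 0.86, 0.84 and 0.84 for mt-Nd4, 0.79, 0.81, 0.80 and 0.79 for mt-Nd5, 0.77, 0.79, 0.77 and 0.77 for mt-Cytb, and 0.83, 0.86, 0.84 and 0.84 for mt-Tm; for mt-Rnr1 the last 3 were 0.016, 0.0018 and 0.00095. With the replicate block and in the same embryos without it, they were 0.20 and 0.20 for mt-Co1, 0.23 and 0.20 for mt-Co3, 0.31 and 0.25 for mt-Nd4, 0.22 and 0.21 for mt-Nd5, 0.21 and 0.17 for mt-Cytb and 0.026 and 0.050 for mt-Tm, and 0.15 for mt-Nd6 with the block. mt-Co3 had 0.061 with copies added, mt-Nd4 0.0060 with all embryos, and mt-Nd1 -0.17 without CONTROL embryos 8 to 10. Leaving out single embryos gave -0.039 to 0.20 for mt-Nd1, -0.14 to 0.078 for mt-Co1, -0.15 to 0.047 for mt-Co3, -0.12 to 0.087 for mt-Nd4, -0.26 to 0.039 for mt-Nd5 and -0.16 to 0.021 for mt-Cytb. The FOXJ3 count stayed at 0 under all alternatives run. Between batches DESeq2 called 2, and 1 with copies added, an alternative chosen after the data were seen. The difference between experiments called 7 with TMM, 0 with FOXJ3 batch 1 alone and 3 with batch 2 alone. Nuclear genes called were 32 with TMM (also without mitochondrial genes or with copies added), 33 with DESeq2 size factors, 36 with embryos 1 to 7, and 51 to 57 with single embryos left out. Per ERCC read, class differences were -0.29 (all), -0.52 (rRNA), -0.41 (tRNA) and -0.12 (mRNA) for TBP and 0.18, 0.18 and 0.031 (all, tRNA, mRNA) for FOXJ3. For these classes, FOXJ3 batch 2 alone gave 0.15, 0.089 and 0.015 as shares of reads, and 0.43, 0.37 and 0.30 per ERCC read. The light to heavy log2 ratio of FOXJ3 was -0.0020 with all embryos, -0.0019 within batches and -0.047 in batch 2, and -0.043 to 0.042 with single embryos left out. The TBP rRNA share had -0.017 to 0.17. The cause of these shifts was not tested. Some tRNAs had few reads, such as mt-Ts1 with 117 in all LOF and 284 in all CONTROL embryos, and the part of counting error in their values was not tested.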
